A study of Mus musculus with 11 samples.

Results

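RFX1 peaks that lie where protein-coding genes meet were examined in mouse ependymal cells. A peak was taken when its summit, the base of highest enrichment, lay within 1 kb of an annotated start or end of 2 or more protein-coding genes in the RefSeq annotation of GRCm38.p6. Of 7440 RFX1 peaks, 340 met this rule, a share of 4.57% (exact Clopper-Pearson 95% interval 4.11 to 5.07), here called shared peaks. They made up 20.3% of the 1677 RFX1 peaks that had any gene end within 1 kb. The other 1337 of these reached 1 gene and are called one-gene peaks, and 5763 RFX1 peaks reached none.

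The data were chromatin immunoprecipitation with sequencing (ChIP-seq) for RFX1, RFX2 and RFX3 in ependymal cells differentiated ex vivo. There were 2 ChIP samples per factor and 5 input samples, 2 for RFX1, 2 for RFX2 and 1 for RFX3. The cells came from the lateral brain walls of wild-type OF1 mice, a tissue that the labels call embryonic at an age given as P0. No treatment or mutant was compared. The deposited lists, with 7440 RFX1, 1250 RFX2 and 9318 RFX3 peaks, each merge the replicates of 1 factor, so no value below has a replicate error and no difference between samples could be tested. Intervals cover the counting of peaks, promoter windows or gene pairs only. Depth is unknown, and the lists hold no expression values with which the labelled cell type could be checked against markers. The labels do not say whether the replicates came from separate animals.

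The RFX family of transcription factors has a winged-helix DNA-binding domain and recognises the X-box, a palindromic DNA element whose arms face each other across a short spacer. They are known as regulators of cilium genes, and ependymal cells carry the motile cilia that move cerebrospinal fluid. Mammalian genes often lie head-to-head, that is, transcribed away from each other from close starts, so that 1 stretch of DNA serves as promoter for both. Such bidirectional promoters are known to be rich in CpG and frequent among genes of DNA repair and other housekeeping functions.

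RefSeq promoter windows (GRCm38.p6, 250 bases before to 50 after a start) covered the summits of 203 of the 340 shared peaks. The stretches below lie around the summits of 8 high-scoring pairs and are shown because X-box letters lie near the summit, with the centre of the marked arms 0.5 bp (Bbs1) to 20 bp (Lrrc56) from it; the last 2 are from high-scoring pairs in which the search found no match. Capitals mark facing arms, GTTNCC followed after 1 to 3 bases by GGNAAC, in which at most 1 of the 10 fixed letters differs. The coordinates are those of the printed stretch, read 5′ to 3′ on the strand given.
Enkur (chr2:21205316-21205428, minus strand): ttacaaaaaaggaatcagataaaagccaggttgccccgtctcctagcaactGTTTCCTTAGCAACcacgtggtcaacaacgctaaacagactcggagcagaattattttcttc
Lrrc56 (chr7:141194938-141195058, plus strand): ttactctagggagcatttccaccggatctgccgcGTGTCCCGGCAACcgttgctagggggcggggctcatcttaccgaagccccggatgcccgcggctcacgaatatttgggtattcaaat
Dtwd1 (chr2:126152040-126152160, plus strand): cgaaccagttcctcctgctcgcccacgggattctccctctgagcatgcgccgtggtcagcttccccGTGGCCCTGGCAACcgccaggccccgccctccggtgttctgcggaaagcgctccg
Tmem138 (chr19:10577050-10577170, minus strand): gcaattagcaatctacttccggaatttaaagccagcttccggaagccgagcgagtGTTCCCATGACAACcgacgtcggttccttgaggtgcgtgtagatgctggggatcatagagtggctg
Bbs1 (chr19:4906578-4906679, minus strand): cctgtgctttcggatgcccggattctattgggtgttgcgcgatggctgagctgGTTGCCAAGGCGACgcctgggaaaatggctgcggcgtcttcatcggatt
Ccdc151 (chr9:22002613-22002733, minus strand): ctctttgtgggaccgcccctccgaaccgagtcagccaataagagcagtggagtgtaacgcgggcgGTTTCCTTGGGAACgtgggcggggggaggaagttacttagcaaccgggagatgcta
Ccdc96 (chr5:36484537-36484637, plus strand): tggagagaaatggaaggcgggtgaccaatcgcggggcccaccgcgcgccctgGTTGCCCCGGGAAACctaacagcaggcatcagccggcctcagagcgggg
Cep19 (chr16:32099761-32099838, plus strand): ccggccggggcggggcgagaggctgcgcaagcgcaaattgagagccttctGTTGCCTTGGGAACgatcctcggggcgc
Cfap57 (chr4:118620736-118620843, minus strand): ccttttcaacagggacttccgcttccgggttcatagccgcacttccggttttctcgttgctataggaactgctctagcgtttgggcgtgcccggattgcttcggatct
Cetn4 (chr3:37312397-37312511, minus strand): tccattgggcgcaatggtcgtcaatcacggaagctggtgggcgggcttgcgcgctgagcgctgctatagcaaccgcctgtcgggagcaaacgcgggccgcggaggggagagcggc

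The partner genes of these stretches were Thnsl1 for Enkur, Hras for Lrrc56, Fam227b for Dtwd1, Cyb561a3 for Tmem138, Dpp3 for Bbs1, Prkcsh for Ccdc151, Tada2b for Ccdc96, Pigx for Cep19, Ebna1bp2 for Cfap57 and Bbs12 for Cetn4. In the Ccdc151, Ccdc96 and Cep19 stretches all fixed letters of both arms were met. The facing arms were present in 25 of the 285 promoter windows that hold a shared summit (8.77%, 5.76 to 12.7), in 57 of 658 windows with the summit of a one-gene peak (8.66%) and in 153 of all 21263 protein-coding windows (0.720%). With 1 letter allowed to differ, a looser search added after the data had been seen, the shares were 38.2% of windows at shared summits, 40.9% at one-gene summits and 4.88% of all windows. A single arm GTTGCC on either strand, which can be part of a facing match, was in 42.8%, 45.4% and 12.6% of the windows. The shares at shared and at one-gene summits lay within each other's intervals for each of these searches. These intervals count windows as separate, but windows of 1 pair or of 1 gene can overlap and hold the same match. Counted once per peak, the facing arms were at 18 of the 203 shared peaks with a summit in a window (8.87%, 5.34 to 13.7). With 1 letter off they were at 73 (36.0%), and a single arm was at 87 (42.9%).

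**Figure D1:**
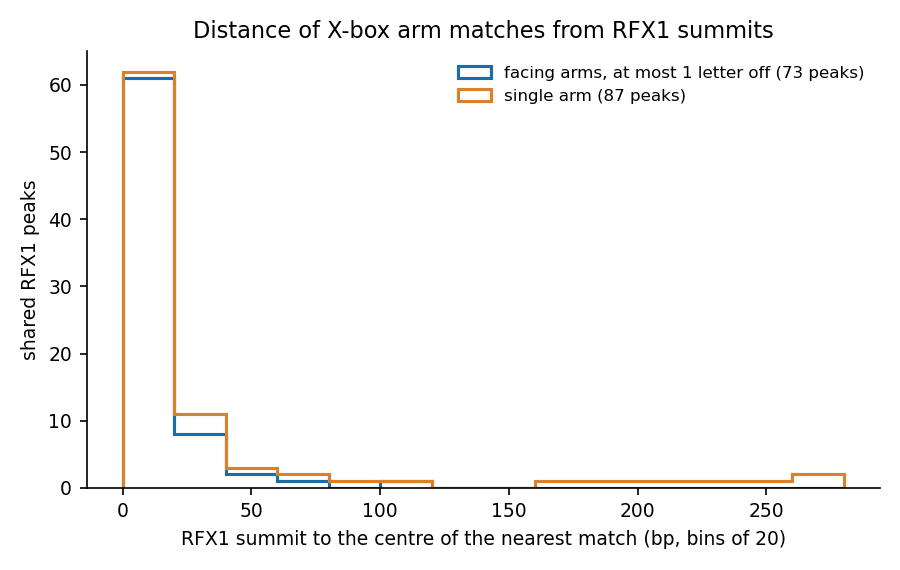
Distance in bp (x axis, bins of 20) between the RFX1 summit and the centre of the nearest match in the promoter windows that hold the summit, counted in shared peaks (y axis), for facing arms with at most 1 letter off (73 peaks) and for a single arm (87 peaks). For the facing arms, 61 of the 73 peaks are in the first bin.

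Where a match was present, it lay close to the summit, as the histogram of match distances shows. The nearest facing arms with at most 1 letter off had their centre at a median of 5.50 bp from the summit over 73 peaks, and 70 of these were within 50 bp. A single arm lay at a median of 8.50 bp over 87 peaks. Among the peaks with a summit in a window, these facing arms were present at 33 of 60 held by all 3 lists (55%, 41.6 to 67.9), at 33 of 99 held by RFX1 and RFX3 (33.3%, 24.2 to 43.5) and at 7 of 44 held by RFX1 alone (15.9%, 6.64 to 30.1). The windows at shared summits also had a higher GC content, a median of 61% against 56.3% over all protein-coding windows, and a higher ratio of observed to expected CpG, 0.826 against 0.567. The part of base composition in the motif shares was not tested.

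The shared peaks were mostly those of adjacent genes, which the 1 kb rule itself favours. The 2 genes nearest to the summit followed each other in gene order at 322 of the 340 peaks. There were 336 peaks with 2 genes, 3 with 3 genes and 1 with 25, and together they reached 682 genes, of which 673 had RFX1 at no one-gene peak. The peak with 25 genes lay on chromosome 18 between an annotated end of Diaph1, a formin that nucleates actin filaments, and the protocadherin gamma cluster, whose genes have annotated ends within 10 bp of each other. The shared peaks were spread over 20 chromosomes, with most on chromosome 7 (38) and chromosome 11 (36).

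The layouts below are counted in peaks, since 10 of the 330 distinct pairs hold 2 shared peaks. At 251 peaks the genes faced each other across the peak and both strands were known, and 198 of these peaks were at head-to-head genes (78.9%), in 192 distinct pairs. A further 48 were head-to-tail (19.1%), where the start of 1 gene lies by the 3′ end of the other, and 5 were tail-to-tail (1.99%). At least 1 start was within reach of 246 of the 251 peaks. At 82 further peaks no strand was used, and at 7 the genes did not face each other. At the head-to-tail peaks the end nearer to the summit was the start in 41 of 48.

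The annotation itself holds unequal numbers of these layouts, so the peaks were also counted per annotated pair. A pair counted as holding a shared peak if both its genes were in reach of the same peak, whichever ends lay there. Of 901 head-to-head pairs with ends within 1 kb of each other, 192 held a shared RFX1 peak (21.3%, 18.7 to 24.1). Pairs with ends farther apart are left out here, so equal counts here and in the layouts above do not stand for the same pairs. The count was 41 of 509 head-to-tail pairs (8.06%, 5.84 to 10.8), 5 of 726 tail-to-tail pairs (0.689%, 0.224 to 1.60) and 77 of 879 pairs of unknown strand (8.76%, 6.97 to 10.8). Of 593 pairs whose genes do not face each other, 288 held one (48.6%), but 276 of these are combinations of genes at the single peak by the protocadherin gamma cluster; without them the count was 12 of 317 (3.79%, 1.97 to 6.52).

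**Figure D2:**
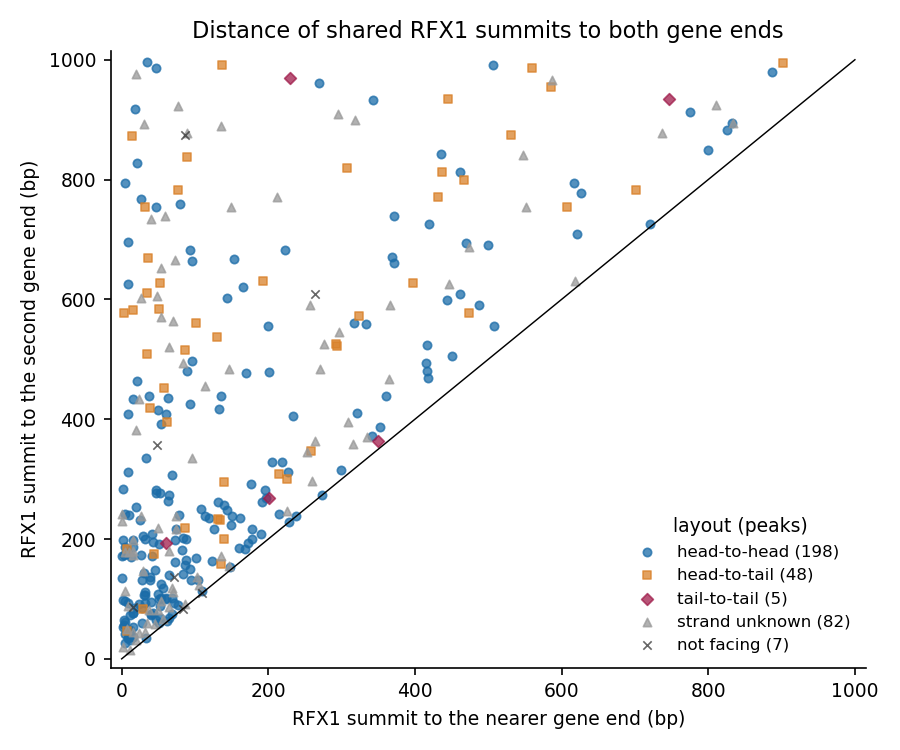
Distance in bp from each shared RFX1 summit to the nearer gene end (x axis) and to the second gene end (y axis), by gene layout; each point is 1 of 340 peaks and the line marks equal distances. Points crowd at the lower left, with a median of 77 bp to the nearer end and 276.5 bp to the second.

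The 2 ends were ordered by distance and both lie within 1 kb by the rule, so the plot of both distances only describes how near they were. The nearer end was at a median of 77 bp (interquartile range 32 to 226.2) and the second at 276.5 bp (141.5 to 602.2). One-gene peaks lay at a median of 143 bp from their gene end. The nearer end was within 100 bp at 57.4% of the shared peaks and at 40.2% of the one-gene peaks; a peak with 2 ends to choose from has more chances of a near one. Both ends were within 100 bp of the summit at 17.9% of the shared peaks and within 500 bp at 67.1%.

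The 1 kb rule keeps both starts near the summit, so close starts at the 198 head-to-head peaks are partly its outcome. The distances are given as a description and were not set against those of all annotated head-to-head pairs. The gap between the starts had a median of 57.5 bp, with quartiles at -55.8 and 149.8 bp and a range of -1112 to 1277 bp, where a negative gap means that the genes overlap. The genes overlapped at 62 peaks, the gap was 0 to 500 bp at 126, and it was over 500 bp at 10. The summit lay between the genes at 33 of the 198 peaks, inside the nearer gene at 103, inside the other gene at 45 and inside both at 17. It was within 100 bp of the midpoint of the starts at 76 peaks and within 500 bp at 176. These distances are to the outermost annotated ends; 28 of 322 peaks were more than 100 bp nearer to a start in the promoter table, as at Lrrc56/Hras, where the summit lay 887 bp inside from the outermost Lrrc56 start and 145 bp before the promoter table's start.

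**Figure D3:**
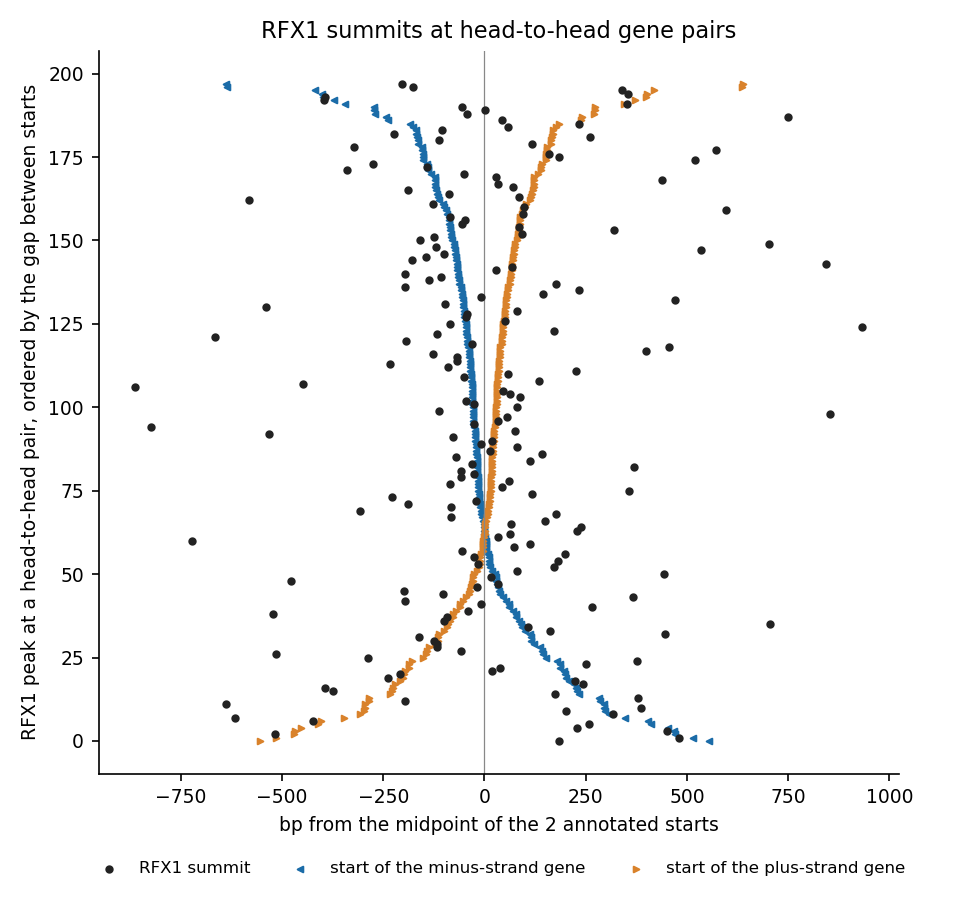
Position of the RFX1 summit (black points) and of both annotated starts (triangles) in bp from the midpoint of the starts (x axis), for the 198 peaks at head-to-head pairs, ordered by the gap between the starts (y axis, from overlapping genes at the bottom to wide gaps at the top). Of the 198 summits, 142 are within 250 bp of the midpoint and 176 within 500 bp.

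RFX3 peaks overlapped most shared RFX1 peaks, and RFX2 peaks overlapped about 1 in 4. By at least 1 bp, an RFX3 peak overlapped 248 of 340 (72.9%, 67.9 to 77.6), against 75.8% of one-gene peaks and 74.2% of all RFX1 peaks. An RFX2 peak overlapped 87 (25.6%, 21.0 to 30.6), against 21.1% of one-gene peaks and 16.6% of all RFX1 peaks. All 87 also overlapped an RFX3 peak, so that 87 shared peaks were in all 3 lists, 161 in the RFX1 and RFX3 lists and none in the RFX1 and RFX2 lists only. The remaining 92 were in the RFX1 list alone (27.1%, 22.4 to 32.1), against 24.1% of one-gene peaks and 25.5% of all RFX1 peaks. The RFX3 share and the share of RFX1 alone were near those of the whole list.

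The overlap followed the strength of the RFX1 peak. Strength is given as the authors' −log10 q, which grows with the certainty of a peak, and as their fold enrichment. Shared peaks had a median −log10 q of 53.1 (95% interval 45.7 to 60.0), against 46.7 for one-gene peaks and 29.1 for all RFX1 peaks, and a median fold enrichment of 8.45, against 8.16 and 7.51. Among the 97 shared peaks in the best-scoring 10% of the RFX1 list, 74 overlapped an RFX2 peak and all 97 an RFX3 peak. In the next 10% the counts were 11 and 43 of 44, and in the 10% after that 2 and 36 of 43. None of the shared peaks further down overlapped an RFX2 peak, and in the lowest-scoring 10% 6 of 22 overlapped an RFX3 peak. Within the better-scoring 50% of the RFX1 list, RFX2 overlapped 37.8% of the shared peaks (31.5 to 44.4), 30.9% of one-gene peaks and 32.7% of all. Within the lower-scoring 50%, RFX3 overlapped 36.4% of the shared peaks (27.4 to 46.1), 45.6% of one-gene peaks (40.8 to 50.5) and 57.3% of all (55.7 to 58.9).

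**Figure D4:**
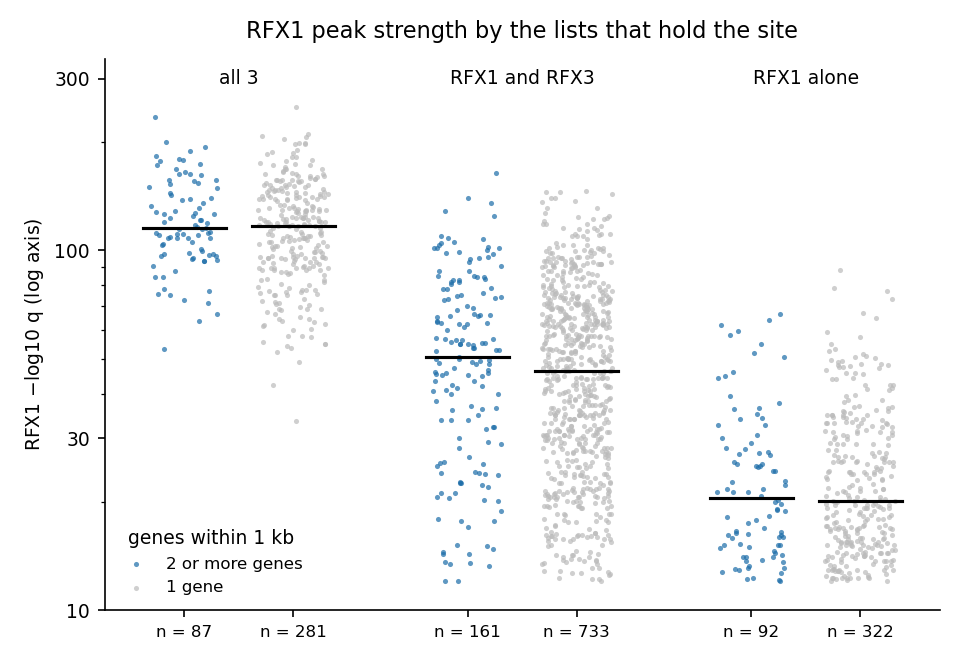
RFX1 −log10 q (y axis, log scale) of peaks with 2 or more genes (blue) and with 1 gene (grey) within 1 kb, by the lists that hold the site; each point is 1 peak and the bars are medians. At shared peaks the median is 115.6 for sites in all 3 lists, 50.4 for RFX1 and RFX3 and 20.5 for RFX1 alone; 1 one-gene peak that overlaps an RFX2 but no RFX3 peak is not drawn.

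Shared peaks in all 3 lists had RFX1 −log10 q values of 53.3 to 234.3 with a median of 115.6. Those in the RFX1 and RFX3 lists had a median of 50.4 (12.1 to 163.9), and those in the RFX1 list alone had one of 20.5 (12.1 to 66.7). The ranges overlapped. RFX2 overlapped 25.3% of the head-to-head, 29.2% of the head-to-tail and none of the 5 tail-to-tail peaks, and RFX3 overlapped 75.3%, 64.6% and all 5; the intervals of the head-to-head and head-to-tail shares overlapped for both factors.

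Where the lists overlapped, the summits nearly coincided. The RFX2 summit was at a median of 9 bp from the RFX1 summit and within 50 bp at 83 of 87 shared peaks. The RFX3 summit was at a median of 12 bp and within 50 bp at 235 of 248. Over all RFX1 peaks these medians were 12 and 16 bp. The RFX3 summit was farthest away at Dnaic1/Fam219a, 333 bp from the RFX1 summit; Dnaic1 encodes an intermediate chain of the outer dynein arm.

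The overlapping RFX3 peaks were well-scored but of low fold enrichment. Their median −log10 q was 38.1, against 19.9 for the whole RFX3 list, while their median fold was 4.66, against 7.45. At 220 of the 248 shared peaks the RFX3 fold was below the median of the RFX3 list (88.7%), as it was at 79.4% of the one-gene peaks and at 37.9% of the RFX1 peaks with no gene end. RFX3 fold exceeded RFX1 fold at 17 of the 248 (6.85%), against 14.6% of one-gene peaks and 45.6% of all RFX1 peaks that an RFX3 peak overlaps. The fold values of the 2 lists come from separate ChIPs, with 2 inputs for RFX1 and 1 for RFX3. They may not share a scale, so these shares describe sets of peaks and not which factor binds more. The fold of the overlapping RFX2 peaks had a median of 8.88, against 9.96 for the whole RFX2 list.

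**Figure D5:**
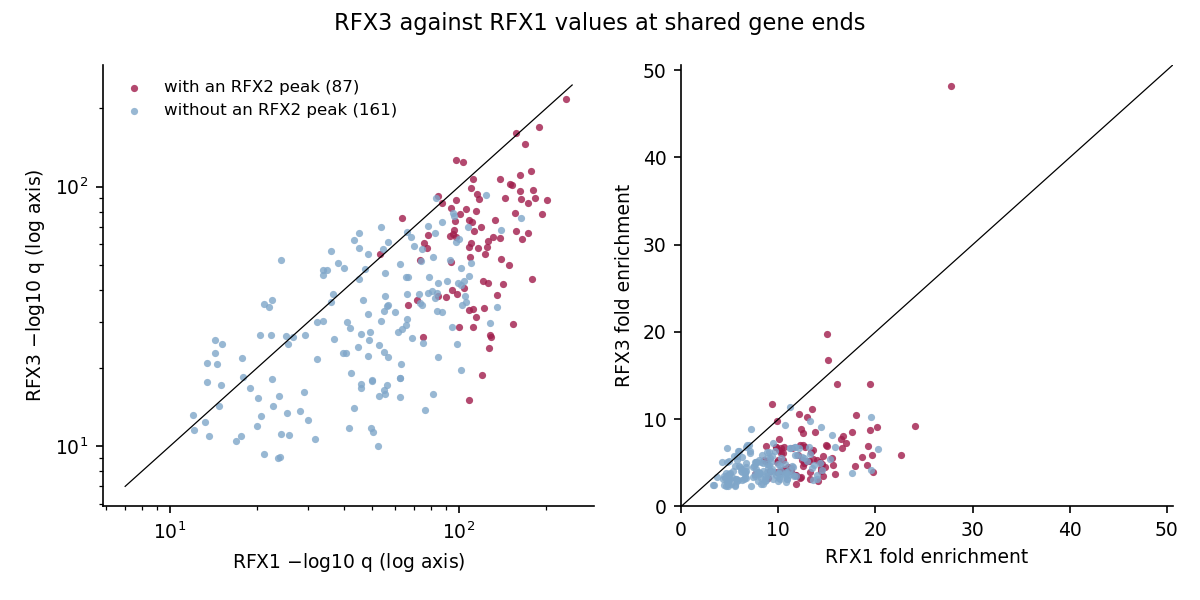
RFX3 against RFX1 values at the 248 shared peaks that an RFX3 peak overlaps, as −log10 q (left, log axes) and fold enrichment (right); red points also have an RFX2 peak, and the lines mark equal values. In the right panel 17 points lie above the line, among them 1700094D03Rik/4933434E20Rik with an RFX1 fold of 27.82 and an RFX3 fold of 48.2.

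The best-scoring shared peak, at chr3:90062483-90063037, reached 1700094D03Rik and 4933434E20Rik, a head-to-tail pair whose annotations overlap. In the RFX1 list it had a −log10 q of 234.343, the RFX2 peak there had 190.883 and the RFX3 peak 216.716, and its summit was 51 bp before the 1700094D03Rik start, inside 4933434E20Rik. The peak of Enkur, which encodes a protein of motile cilia and sperm flagella, and Thnsl1 followed at chr2:21205033-21205947. It scored 200.638 in the RFX1 list, 124.855 in the RFX2 list and 88.889 in the RFX3 list, with the starts 3 and 57 bp from the summit. Lrrc56, whose protein is needed for dynein arms in motile cilia though it is not on the ciliary lists used here, and the GTPase gene Hras shared a peak that scored 193.509 (RFX1), 142.472 (RFX2) and 78.527 (RFX3). All of the 10 best-scoring shared peaks were in all 3 lists, and 7 of them were head-to-head.

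The other 7 of the 10 scored between 173.052 and 189.151 for RFX1. In falling order they lay at Fbxl19 and the calcium channel gene Orai3, Ebna1bp2 and Cfap57, 4921536K21Rik and Dusp18, Asb7 and Lins1, Josd2 and Aspdh, Dtwd1 and Fam227b, and Cyb561a3 and Tmem138. At Ebna1bp2, a gene of ribosome assembly, and Cfap57, a gene of the ciliary axoneme, the genes overlapped by 21 bp, and the starts were 16 and 36 bp from the summit. Cyb561a3 and Tmem138, a gene of the ciliary transition zone, overlapped by 230 bp. Fbxl19/Orai3 and Josd2/Aspdh were head-to-tail.

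The best-scoring shared peak held by 2 lists was that of Ppil6 and Smpd2, at 163.869 for RFX1 and 75.444 for RFX3, with no RFX2 peak. It was followed by Fam229b/Tube1, Pik3r2/Mast3, Qtrt2/Ccdc191 and Galk2/Cops2, with RFX1 values of 124.374 to 139.710. Of the peaks held by RFX1 alone, the best lay between Stub1, a ubiquitin ligase gene, and Rhbdl1, at 66.650. It was followed by Iqcc/Ccdc28b, Bbip1/Shoc2, BC049715/Wbp11 and Rsrc2/Kntc1, at 58.292 to 63.909. The 5 lowest peaks, with RFX1 values of 12.060 to 12.221, were at Ercc8/Ndufaf2, Izumo4/Mob3a, Ndufaf7/Cebpz, Umad1/Rpa3 and Ccdc142/Mrpl53; 2 of these 5 overlapped an RFX3 peak.

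About 1 in 5 shared peaks reached a gene of cilia. Of 324 measured genes on the ciliary lists, 66 were at a shared peak, 140 at one-gene peaks only and 118 at no RFX1 peak within 1 kb, against 682, 1298 and 19907 of all 21887 protein-coding genes. At least 1 ciliary gene was at 68 of the 340 shared peaks (20%), in 64 distinct pairs, and at 10.7% of the one-gene peaks; a peak with 2 genes has more chances to reach one. Of the 206 ciliary genes with an RFX1 peak, 66 were at a shared one. Their share lay just below the 34.4% over all protein-coding genes with an RFX1 peak. At the 66 peaks with 1 ciliary gene, that gene was the nearer to the summit at 48 (72.7%, 60.4 to 83.0). RFX2 overlapped 24 of the 68 peaks (35.3%, 24.1 to 47.8) and 63 of the 272 without a ciliary gene (23.2%, 18.3 to 28.6), and RFX3 overlapped 53 and 195. These peaks were also the stronger ones, with a median RFX1 −log10 q of 73.9 against 49.1, and the part of strength in these shares was not tested.

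Both genes were ciliary in 2 pairs. Cetn4, which encodes a centrin of the basal body, and Bbs12, which encodes a chaperonin-like protein needed to assemble the BBSome, were head-to-head with starts 100 bp apart and a summit 5 bp from that of Cetn4. Their peak scored 97.419 (RFX1), 20.206 (RFX2) and 89.091 (RFX3). Ttc30a2 and Ttc30a1, near-identical neighbours that encode a subunit of the intraflagellar transport (IFT) complex B, lay head-to-tail under a peak of 28.115 in the RFX1 list alone. Reads from such copies can be hard to place, and the labels do not say how they were treated, so this peak is uncertain.

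The ciliary lists differ in size, and their shares of genes at shared peaks ran from 12.9% (dynein arms) to 25.7% (transition zone). By count, the axonemal spoke, dynein regulatory and central pair list had the most genes at shared peaks. These were 17 of its 69 (24.6%), with 36 at one-gene peaks only and 16 at none. Enkur, Cfap57, Nme7, Cfap61, Cfap69 and Cfap52 were among them, and 15 of the 17 peaks overlapped an RFX3 peak. Of the 31 outer and inner dynein arm genes, 4 were at shared peaks. Ccdc151, which encodes a docking factor of the outer arm, scored 138.885 with Prkcsh and was in all 3 lists. Of the 18 dynein assembly factors, 4 were at shared peaks, led by Dnaaf5/Prkar1b at 139.758 and Dnaaf1/Hsdl1 at 109.065, both in all 3 lists.

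Of the 34 genes of IFT subunits and motors, 5 were at a shared peak and 18 at one-gene peaks only. Of their 5 shared peaks, 4 were in the RFX1 list alone, against 27.1% of all shared peaks; these 4 lay at 3 pairs, since Ift140/Cramp1l held 2, and one of the 3 is the uncertain Ttc30a2/Ttc30a1. Mbd4/Ift122 was the exception, at 117.410 in all 3 lists. Ift20, at 51.728 with Tnfaip1, and Ift140, at 36.472 and 26.993 with Cramp1l, had no RFX2 or RFX3 peak there. A further RFX1 peak of Ift140 and Cramp1l had its summit 1014 bp from the second gene end, just outside the limit, scored 69.074 and overlapped an RFX3 peak.

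Of the 13 BBSome genes, Bbs1, Bbs12 and Bbip1 were at shared peaks. Bbs1, a subunit of the complex that carries membrane proteins in cilia, scored 162.681 with Dpp3 and was in all 3 lists. Of the 49 basal body and centriole genes, 11 were at shared peaks, all overlapped by RFX3 and 5 also by RFX2. Tube1, which encodes epsilon-tubulin, scored 139.710 with Fam229b and had no RFX2 peak, while Ccdc96, at 135.446, and Cep19, at 132.777, were in all 3 lists. Of the 35 transition zone genes, 9 were at shared peaks, among them Tmem138, Rpgrip1l (75.289, all 3 lists), Cep290 (62.476, RFX1 and RFX3) and Tctn3 (56.177, RFX1 and RFX3). Foxj1, which encodes a master regulator of motile cilia, shared its peak with Rnf157, whose 3′ end lay 923 bp from the summit. The peak scored 150.388 (RFX1), 41.786 (RFX2) and 101.917 (RFX3). Its summit was 77 bp from an annotated end of Foxj1, a gene without a strand in the promoter table, so that end was not assigned as start or 3′ end.

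Of 98 DNA repair genes, 13 were at a shared peak (13.3%), 4 at one-gene peaks only and 81 at none, while 3.12% of all protein-coding genes were at a shared peak. The 13 were 76.5% of the 17 repair genes with an RFX1 peak, against 34.4% of the 1980 genes with one over all protein-coding genes. Xrcc1, a scaffold of single-strand break repair, scored 164.869 with Pinlyp, and Fanci, of the Fanconi anaemia pathway, 107.937 with Rlbp1; both were in all 3 lists. Smc6 and Gen1, which encode a subunit of the SMC5/6 complex and a Holliday junction resolvase, were head-to-head at 84.750 in the RFX1 and RFX3 lists. Brca1 and Nbr1 held 2 shared peaks 821 bp apart, of which the better, 43 bp from the nearer start, scored 72.998 in all 3 lists and the other 17.801 in the RFX1 list alone. Of the 13 repair peaks, 4 were in all 3 lists, 5 in the RFX1 and RFX3 lists and 4 in the RFX1 list alone. Among those in all 3 lists was the peak of the repair gene Mbd4 and Ift122, which is also counted with the IFT genes above. The weakest repair peaks were Atr/1700065D16Rik at 13.709 and Ercc8/Ndufaf2 at 12.221.

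Respiratory chain and ribosomal genes were at shared peaks in small numbers, with shares of 5.15% to 8.26% per list against 3.12% of all protein-coding genes. The respiratory chain list was drawn by gene-name prefix. It also holds genes of assembly factors, such as Cox11, Ndufaf2, Ndufaf3 and Ndufaf7, and of ATP synthase, such as Atp5a1. Of its 109 genes 9 were at shared (8.26%) and 8 at one-gene peaks only, led by Stxbp4/Cox11 at 98.172 in all 3 lists and Morn5/Ndufa8 at 76.103. Of 78 mitochondrial ribosome genes 6 were at shared (7.69%) and 3 at one-gene peaks only; Mrpl10, at 122.856 with the ciliary gene Lrrc46, was the only one whose peak was in all 3 lists. Of 97 cytosolic ribosome genes 5 were at shared (5.15%) and 8 at one-gene peaks only, led by Rpl35a at 128.163, whose partner Iqcg is a ciliary gene. No replication-dependent histone gene was at a shared peak and 1 was at a one-gene peak, of 67, and of 468 zinc finger genes 9 were at shared peaks and 29 at one-gene peaks only.

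The 5 tail-to-tail pairs, where no start was annotated at the peak, were Aimp2/Eif2ak1, Tcirg1/Chka, Ccdc74a/Med15, Sphk2/Dbp and Ndufb10/Rps2, with RFX1 values of 97.377 to 41.543. Each overlapped an RFX3 peak and none an RFX2 peak. The 7 pairs whose genes did not face each other scored 14.411 to 104.847 for RFX1, led by Ttc16/Tor2a, and 2 of them overlapped an RFX3 peak. The peaks with 3 genes were those of Rspry1, Psme3ip1 and LOC115486880, of Gm20604, Gon7 and Ubr7, and of Tbcb, Polr2i and Ovol3.

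There were 10 pairs with 2 shared RFX1 peaks, 336 to 1210 bp apart. The better peak was in another list in 6 of these pairs and the other peak in 2. Khdrbs1/Tmem39b had the highest second peak, at 62.621 beside 84.493. At the 1 kb limit, the members just inside had their second end at 987 to 996 bp and scored 14.623 to 104.111 for RFX1 (Plod3/Znhit1, Lin52/Aldh6a1, Cactin/Pip5k1c, Tmem95/Kctd11 and Cacnb1/Rpl19). The peaks just outside had it at 1002 to 1016 bp and scored 22.208 to 69.074 (Wdr73/Nmb, Grwd1/Grin2d, Zdhhc23/Gramd1c, Ift140/Cramp1l and Eef1g/Tut1).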

How the data were processed

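The deposited peak lists give 1 row per peak with a fold enrichment (ratio over input), a −log10 q and a score that the authors' peak caller made. Build GRCm38 and the tools MACS2 2.0.10.20130520, Bowtie 0.12.7 and CASAVA 1.8.2 are listed in the submitters' processing notes, without roles; how replicates were merged and repeats treated is not stated there. Depth is unknown. Gene ends are those of 21887 protein-coding genes in the RefSeq annotation of GRCm38.p6; strands came from the RefSeq promoter table, which matched 17492 of them. Members and gene lists were chosen with earlier results of these data known.

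Peaks overlapped at 1 bp or more. Shares have exact Clopper-Pearson 95% intervals over peaks, promoter windows or gene pairs. No test between samples was possible from merged lists. Pairs are named by the 2 nearest genes, the nearer first. The pairs named are the 10 best by RFX1 −log10 q, the 10 best with a ciliary gene, the best 5 per class, layout or gene list, the 5 lowest, and those at the 1 kb limit; others named were chosen after their values were seen. Promoter windows were searched for X-box letters on both strands. Windows, overlap rules and peak thresholds were varied (Python 3.11.15, pandas 2.3.3, scipy 1.17.1). The search for gene ends was tested at random positions near annotated genes, the peak overlap on simulated peaks and the gene layout on made-up genes. The other steps had no such test.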

Additional observations from a re-analysis of the deposited data

How the results depend on the processing

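Each list merges its replicates, so replicate spread could not be assessed and leaving out a replicate was not possible. No paired analysis was possible because the lists carry no replicate columns. Genes without a strand in the promoter table leave 82 peaks without an orientation. Of 46 alternatives of the results, 29 stayed within the interval or within 1.5 times the count reported and 17 moved. The head-to-head share of 78.9% was 89.0% with a 500 bp window and 65.8% with a 2 kb window. Counting gene starts only left 200 of 340 peaks. That count also drops every gene without a strand, so it does not give the number of shared peaks that reach 2 starts. In the better-scoring 50% of RFX1 peaks, RFX2 overlapped 37.8%, RFX3 90.4% and the median −log10 q was 78.4. With as many best RFX1 peaks as the RFX2 list holds, 130 shared peaks were left, RFX2 overlapped 64.6% and RFX3 100%, the median −log10 q was 107.8 and 27.7% had a ciliary gene. RFX3 overlapped 67.4% when each peak had to cover 50% of the other. Against the better-scoring 50% of the other list, RFX2 overlapped 15.6% and RFX3 58.5%. The share of promoter windows with facing arms was 5.02% for all windows with a start within 1 kb of a summit and 38.2% with 1 letter off, and that with a single arm 29.2% for all such windows. The stricter windows and thresholds leave fewer peaks by construction; other causes were not tested. List membership was checked for 17 of the named peaks, the best-scoring ones and the best with a ciliary gene. Of these, Nme7/Blzf1 alone changed, from 3 lists to 2. It did so when the overlap had to reach 50% of both peaks or summits had to lie within 50 bp. The other named peaks were not checked singly. Among all shared peaks, the RFX3 summit was within 50 bp at 235 of 248 and the RFX2 summit at 83 of 87. Dnaic1/Fam219a, with its RFX3 summit 333 bp away, lay outside that limit.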
